A study of Mus musculus with 6 samples.

Results

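The genes described here were Gria3, Lphn3 and Trpm2 together with a set of cation channel genes of immune cells, Trpv2, P2rx4, P2rx7, Piezo1, Orai1, Stim1 and Hvcn1. They are 10 of the 14788 gene symbols in the count table. Lphn3 is now called Adgrl3, and Piezo1 was found under its older symbol, Fam38a, through the RefSeq synonyms. They were picked by name, with results of these data known, so their differences between genotypes are given as descriptions with no p-value, and where they stand against the threshold of the fit over all genes is stated only to describe them. RNA had been sequenced in 6 libraries of spleen type-2 conventional dendritic cells (cDC2s), antigen-presenting cells that mainly prime CD4 T cells. Of these, 3 came from Arhgef1-/- cells, called Arhgef1 KO here, and 3 from wild-type (WT) cells, all of strain C57BL/6. Arhgef1 encodes an exchange factor that switches on RhoA, a small GTPase of the actin cytoskeleton, when receptors signal through G12 or G13. The part of the gene that was deleted, the age of the mice, the sorting of the cells and whether replicates came from separate animals are not stated in the labels, so p-values measure the spread between these libraries, which may be technical.

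Cation channels let calcium, sodium, potassium or protons cross a membrane, and immune cells use several kinds. Purinergic P2X channels open when extracellular ATP binds, Piezo channels open when the membrane is stretched, and TRP channels answer to ligands, heat, oxidants or lipids. Store-operated entry works differently, since the sensor STIM1 detects an emptied endoplasmic reticulum and opens ORAI1 in the plasma membrane. AMPA-type glutamate receptors such as the one containing GRIA3 are best known from synapses, and latrophilins such as LPHN3 are adhesion receptors coupled to G proteins rather than channels.

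The libraries held 8408325 to 11714365 counts. Arhgef1 itself had 987, 1238 and 1694 counts in the Arhgef1 KO libraries and 3000, 2754 and 2088 in the WT libraries. In CPM (read counts scaled by the TMM-adjusted size of each library) this was 129 ± 14.8 in Arhgef1 KO and 284 ± 35.6 in WT (SD, n = 3 each). The fitted log2 fold change was -1.13 ± 0.11 (SE), so Arhgef1 reads were fewer but remained in every Arhgef1 KO library. Markers of the labelled cell type were present in every library, with Itgax at 1210 to 1470 CPM, H2-Ab1 at 6500 to 9050 CPM and Zbtb46 at 72.5 to 89.8 CPM. The summed level of 10 cDC2 markers was 9690 to 10500 CPM in Arhgef1 KO and 11700 to 13100 CPM in WT, and by edgeR (adjusted p under 0.05) 5 of the 10 fell in the knockout (Cd209a, Cd4, H2-Ab1, Sirpa and Clec4a4) while none rose. The libraries differed in other cell markers too. The summed level of 17 macrophage markers was 445, 281 and 274 CPM in Arhgef1 KO replicates 1, 2 and 3 and 1200, 899 and 747 CPM in WT replicates 1, 2 and 3. Of these markers 13 fell in the knockout by edgeR's quasi-likelihood test (adjusted p under 0.05), and none was at 0 in all 6 libraries. In these bulk samples fewer macrophages and less RNA per cell cannot be told apart, and the part of the shifts in cDC2 and macrophage markers in the results below was not tested. B cell markers summed to 478 to 546 CPM in Arhgef1 KO and 425 to 499 CPM in WT. Most of that sum was Cd22, at 372 to 453 CPM in Arhgef1 KO and 340 to 395 CPM in WT, so it rests mainly on that gene. The sum of 8 monocyte markers was 905 to 982 CPM in Arhgef1 KO and 1060 to 1170 CPM in WT. Of the 6 tested, 2 fell in the knockout by edgeR (adjusted p under 0.05), Csf1r and Lyz2, and none rose. Csf1r was at 104 ± 16.1 CPM in Arhgef1 KO and 176 ± 48.5 CPM in WT (SD, n = 3 each). Lyz2 was at 108 ± 37.5 CPM in Arhgef1 KO and 189 ± 58.7 CPM in WT, and its call was lost with DESeq2. The part of monocytes in the results below was not tested either. Among 6 neutrophil markers the sum was 24.8 CPM in Arhgef1 KO replicate 1, 0.31 and 5.71 CPM in the other Arhgef1 KO libraries, and 1.53 to 3.45 CPM in WT. All Arhgef1 KO libraries were run in lane 2 under one run name and all WT libraries in lane 1 under another, per the source names in the labels, so lane and genotype cannot be told apart.

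All 10 genes passed the filter on low counts. Gria3 was higher in Arhgef1 KO, Lphn3 and Trpm2 were lower, and the other 7 differed by smaller amounts relative to their spread. In the fit over 11504 genes, 1 of the 10 was called higher (Gria3) and 2 were called lower (Lphn3 and Trpm2), where 5.09% of all tested genes were called higher and 4.58% lower. The 3 Arhgef1 KO values did not overlap the 3 WT values in 5 of the 10 genes, beside 27.2% of all tested genes; they lay above WT in 2 (13.7% of all tested genes) and below it in 3 (13.5%). Nothing is read from these counts, because the choice of genes used the same contrast. The median log2 fold change of the 10 was -0.17, beside 0.00 for all genes tested.

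**Figure D1:**
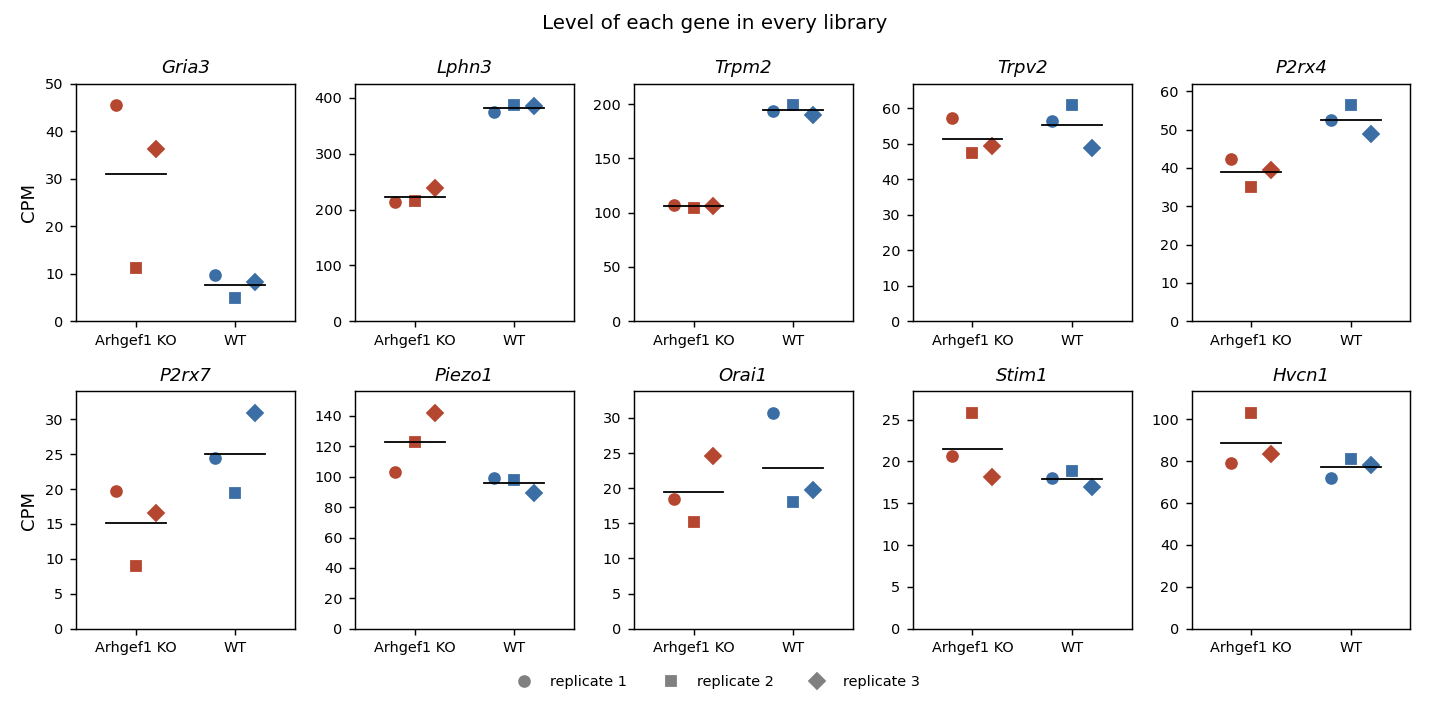
Level of each of the 10 genes in every library, in CPM on a linear axis that starts at 0 in each panel, with Arhgef1 KO to the left of WT. Symbols mark replicate numbers and lines the group means; Trpm2 stands at 104 to 107 CPM in Arhgef1 KO and 190 to 199 CPM in WT, while Gria3 spreads from 11.1 to 45.5 CPM within Arhgef1 KO.

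Gria3 encodes a subunit of AMPA-type glutamate-gated cation channels. Its level was 45.5, 11.1 and 36.3 CPM in Arhgef1 KO replicates 1, 2 and 3 and 9.77, 4.95 and 8.14 CPM in WT replicates 1, 2 and 3. Every Arhgef1 KO library lay above every WT library, but Arhgef1 KO replicate 2 lay much nearer to WT replicate 1 than to the other Arhgef1 KO libraries. The underlying counts were 391, 107 and 426 in Arhgef1 KO and 102, 43 and 69 in WT. The mean was 31.0 ± 17.8 CPM in Arhgef1 KO and 7.62 ± 2.45 CPM in WT (SD, n = 3 each), and the fitted log2 fold change was 2.01 ± 0.38 (SE). It was 2.41 without Arhgef1 KO replicate 2 and 1.64 without Arhgef1 KO replicate 1. Arhgef1 KO replicate 1, which had the highest Gria3 level, also had the highest sum of neutrophil markers and of T cell markers (54.8 CPM, against 29.8 and 35.8 CPM in the other Arhgef1 KO libraries and 31.2 to 37.5 CPM in WT). The T cell sum rests mainly on Cd5, at 37.5, 26.4 and 28.8 CPM in Arhgef1 KO and 24.0, 32.5 and 20.5 CPM in WT. The part of neutrophils and T cells in the Gria3 values was not tested. Gria3 lies on chromosome X (mm10, 41400854 to 41678601, plus strand), and the libraries were alike in sex-linked genes: Xist, expressed from the inactive X of females, was at 8550 to 11200 CPM in Arhgef1 KO and 9700 to 10700 CPM in WT, and the Y-linked genes Ddx3y and Uty had at most 2 counts in any library.

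Gria3 was compared over the 6 libraries with 8078 genes whose average log2 CPM reached 3 or more, leaving out predicted-gene and similar placeholder names. Among these, its log2 CPM was followed most closely by the transcriptional repressor gene Cic (Pearson r = 0.986), Tbrg4 (0.972), whose protein acts on mitochondrial RNA, and Parp2 (0.968), which encodes a poly(ADP-ribose) polymerase. Cic, Tbrg4 and Parp2 each had their lowest Arhgef1 KO value in replicate 2, as Gria3 did: Cic was at 182, 142 and 174 CPM in Arhgef1 KO and 135, 127 and 128 CPM in WT. With 6 libraries in 2 groups a high r describes mainly the genotype difference together with the shared library. These genes were chosen for their likeness to Gria3, so no p-value is given for them. Their log2 fold changes were 0.35 ± 0.11 for Cic, 0.54 ± 0.18 for Tbrg4 and 0.45 ± 0.13 for Parp2.

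Lphn3 encodes latrophilin 3, an adhesion receptor that binds teneurins and FLRT proteins on other cells. It was the most abundant of the 10 by counts, at 213, 216 and 238 CPM in Arhgef1 KO and 375, 387 and 385 CPM in WT. The groups did not overlap and lay far apart compared with their spread, with means of 223 ± 13.6 CPM in Arhgef1 KO and 382 ± 6.47 CPM in WT (SD, n = 3 each). The fitted log2 fold change was -0.78 ± 0.08 (SE) and stayed between -0.83 and -0.75 over all alternatives. Lphn3 spans chromosome 5, 81020138 to 81825133, on the plus strand. In GENCODE 4 other annotated genes overlap this span, among them an antisense transcript, whose reads cannot be told apart without a stated strand setting. The closest followers of Lphn3 over the libraries were Zcchc11 (r = 0.996), which encodes a terminal uridylyltransferase, Errfi1 (0.995), an inhibitor of EGF receptor signalling, and the carnosine synthase gene Carns1 (0.994). Errfi1 was at 46.6, 44.1 and 51.2 CPM in Arhgef1 KO and 79.2, 85.8 and 88.0 CPM in WT (log2 fold change -0.83 ± 0.13). The log2 fold change was -0.26 ± 0.08 for Zcchc11 and -0.62 ± 0.27 for Carns1, again with no test, since they were chosen for this likeness.

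Trpm2 encodes a calcium-permeable channel opened by ADP-ribose, a signal of oxidative stress. Its level was 107, 104 and 106 CPM in Arhgef1 KO and 194, 199 and 190 CPM in WT. The replicates lay close together, with an SD of 1.25 CPM around 105 CPM in Arhgef1 KO and of 4.42 CPM around 194 CPM in WT (n = 3 each), and the groups did not overlap. The fitted log2 fold change was -0.88 ± 0.10 (SE), between -0.90 and -0.85 over all alternatives. Macrophages and neutrophils are known to express Trpm2 in mice. The macrophage sum was 274 to 445 CPM in Arhgef1 KO and 747 to 1200 CPM in WT, and the part of these cells in the Trpm2 values was not tested. The genes that followed it most closely were the splicing kinase gene Clk1 (r = 0.998), the C-type lectin gene Cd209a (0.995) and Tnfaip8l2 (0.995), a regulator of immune signalling. Clk1 was at 531 ± 7.23 CPM in Arhgef1 KO and 753 ± 7.52 CPM in WT (SD, n = 3 each; log2 fold change -0.50 ± 0.07). Cd209a, which is also one of the cDC2 markers that fell, was at 78.2, 76.5 and 78.2 CPM in Arhgef1 KO and 238, 220 and 243 CPM in WT. Tnfaip8l2 had a fold change of -0.47 ± 0.18 on the log2 scale. These genes too were chosen for their likeness and are given no test.

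The 250 bases before a RefSeq transcript start (GRCm38.p6) are shown for Lphn3 and Trpm2, which were lower together, and for the relative Lphn1, which was higher, with each CG dinucleotide in capitals. The windows are chr5:81020321-81020570 on the plus strand, the first of 3 listed starts of Lphn3, chr10:77969873-77970122 on the minus strand for Trpm2, and chr8:83899848-83900097 on the plus strand for Lphn1. In GENCODE, Lphn3 starts earlier, at 81020138, and Trpm2, on the minus strand, at 77970563. The Lphn3 and Trpm2 windows therefore lie inside the GENCODE bounds of these genes.
Lphn3: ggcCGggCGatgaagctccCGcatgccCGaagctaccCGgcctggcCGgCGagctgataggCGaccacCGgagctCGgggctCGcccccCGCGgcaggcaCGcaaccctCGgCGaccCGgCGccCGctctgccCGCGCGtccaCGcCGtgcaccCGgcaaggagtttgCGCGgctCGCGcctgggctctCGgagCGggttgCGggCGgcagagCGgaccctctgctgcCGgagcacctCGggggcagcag
Trpm2: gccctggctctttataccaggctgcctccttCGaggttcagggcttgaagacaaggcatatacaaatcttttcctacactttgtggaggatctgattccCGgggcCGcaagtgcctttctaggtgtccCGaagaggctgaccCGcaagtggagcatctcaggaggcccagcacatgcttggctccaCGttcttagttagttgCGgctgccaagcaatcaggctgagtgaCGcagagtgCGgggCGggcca
Lphn1: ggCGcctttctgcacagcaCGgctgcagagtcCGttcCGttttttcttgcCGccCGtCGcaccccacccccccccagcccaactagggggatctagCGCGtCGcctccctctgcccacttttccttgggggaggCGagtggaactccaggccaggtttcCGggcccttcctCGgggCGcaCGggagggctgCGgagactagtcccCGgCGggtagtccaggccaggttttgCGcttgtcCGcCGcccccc
The Lphn3 window shown held 36 CG dinucleotides, and 97.4% of the 32841 windows of this length held fewer. The windows of the other Lphn3 starts held 18 each, and the Lphn1 window held 21. The second Lphn3 window, from 81020502, overlaps the one shown. The Trpm2 window held 10, beside a median of 6 over all windows, of which 92.1% held at least 1. The CArG box, the motif bound by serum response factor, was searched in its palindromic form that reads the same on both strands. It matched in 0 of the 13 windows of the 8 genes that had a window, and in 1.47% of all windows. With so low a share over all windows, 13 windows are too few to tell these genes from others, and nothing is read from the 0. Some of the 13 also overlap each other, those of Trpv2 as well as those of Lphn3. Gria3 and Hvcn1 had no window.

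The P2X receptors for ATP were both lower on average in Arhgef1 KO. P2rx4, whose channel opens at low ATP levels, was at 42.4, 35.1 and 39.4 CPM in Arhgef1 KO and 52.5, 56.4 and 48.8 CPM in WT. The groups did not overlap, and the fitted log2 fold change was -0.43 ± 0.15 (SE), not past the threshold in the fit over all genes. P2rx7, whose channel needs high ATP and can trigger the NLRP3 inflammasome, was at 19.7, 9.0 and 16.6 CPM in Arhgef1 KO and 24.5, 19.5 and 30.9 CPM in WT. Arhgef1 KO replicate 1 lay just above WT replicate 2, so the groups overlapped. The log2 fold change of P2rx7 was -0.73 ± 0.26 and moved to -0.47 without Arhgef1 KO replicate 2, its lowest library. It did not pass the threshold either.

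Piezo1 encodes the pore of a stretch-activated channel. It was at 103, 123 and 142 CPM in Arhgef1 KO and 99.1, 98.2 and 89.6 CPM in WT, so the Arhgef1 KO libraries lay above WT, with replicate 1 only slightly so. The log2 fold change was 0.36 ± 0.12 (SE), not past the threshold. Its reads cannot be told apart from those of 3 annotated genes that overlap it, Gm26497 on its own strand and Ctu2 and Gm20388 on the opposite strand. Ctu2 had 96 to 127 counts in a library and Piezo1 760 to 1663. Trpv2, a cation channel that takes part in phagocytosis by mouse macrophages, was at 57.2, 47.4 and 49.4 CPM in Arhgef1 KO and 56.3, 60.8 and 48.8 CPM in WT. These values overlapped widely (-0.11 ± 0.14).

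The store-operated pair did not pass the threshold. Orai1, the pore subunit, was at 18.5, 15.2 and 24.6 CPM in Arhgef1 KO and 30.7, 18.0 and 19.7 CPM in WT. One library in each group, Arhgef1 KO replicate 3 and WT replicate 1, stood above the others, and the log2 fold change of -0.23 ± 0.24 became 0.05 without WT replicate 1. Stim1, the calcium sensor, was at 20.6, 25.8 and 18.1 CPM in Arhgef1 KO and 18.0, 18.8 and 16.9 CPM in WT (0.26 ± 0.21), with overlapping groups. On the opposite strand, the antisense gene Gm2479 overlaps Orai1 and the pseudogene Gm18255 overlaps Stim1. Reads of such overlapping genes cannot be told apart without a stated strand setting. Hvcn1 encodes the voltage-gated proton channel that keeps the phagocyte NADPH oxidase running and is also strongly expressed in B cells. It was at 79.2, 103 and 83.2 CPM in Arhgef1 KO and 71.8, 80.9 and 78.3 CPM in WT. The values overlapped (0.20 ± 0.13), and its reads cannot be told apart from those of Tctn1, which overlaps it on the opposite strand. Tctn1 had 35 to 73 counts in a library and Hvcn1 664 to 1000.

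**Figure D2:**
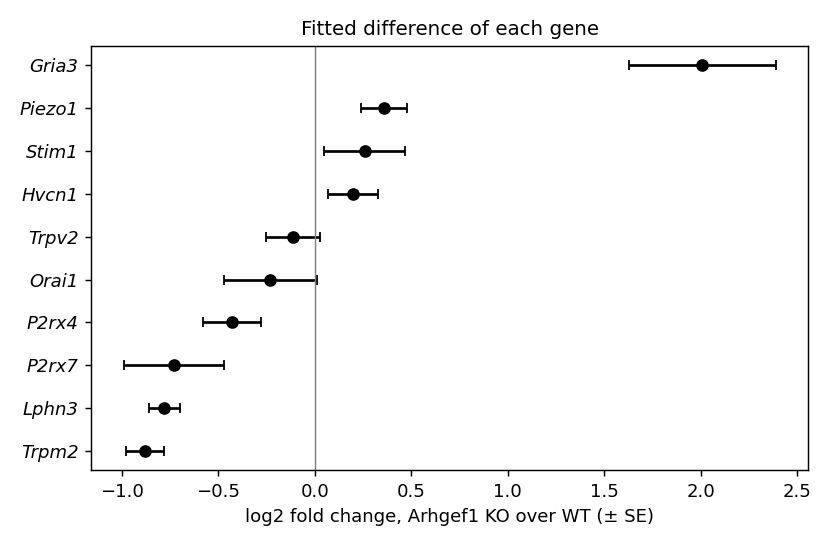
Fitted log2 fold change of each gene, Arhgef1 KO over WT, with bars for the SE (3 libraries per group). Gria3 stands at 2.01 and Trpm2 and Lphn3 at -0.88 and -0.78; the SE of Gria3 (0.38) is the widest and that of Lphn3 (0.08) the narrowest.

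Levels can be compared between genes only per length, so CPM was divided by the exonic length of each gene in GENCODE vM21. In Arhgef1 KO the order was led by Hvcn1 at 24.9 ± 3.65 CPM per kb (SD, n = 3), followed by Lphn3 (12.5 ± 0.767), Piezo1 (12.3 ± 1.95) and Trpv2 (11.4 ± 1.15), whose neighbouring ranges overlapped. Trpm2 (8.47 ± 0.10) and Orai1 (8.46 ± 2.07) came next and could not be ordered, then P2rx4 (5.54 ± 0.523). Orai1 reached 10.7 in 1 library, into the ranges of Trpv2 (from 10.6) and Piezo1 (from 10.4). Gria3 (3.14 ± 1.81), P2rx7 (2.53 ± 0.921) and Stim1 (2.07 ± 0.377) closed the order with overlapping ranges. In WT the order was Hvcn1 (21.6 ± 1.31) and Lphn3 (21.5 ± 0.365), with overlapping ranges, then Trpm2 (15.6 ± 0.355), then Trpv2 (12.3 ± 1.35), Orai1 (9.92 ± 3.0) and Piezo1 (9.63 ± 0.527), whose neighbouring ranges overlapped. P2rx4 (7.49 ± 0.540), P2rx7 (4.18 ± 0.961), Stim1 (1.72 ± 0.0922) and Gria3 (0.773 ± 0.249) followed, each below the range of the one directly before. P2rx4, at up to 8.03, still overlapped Orai1, which went down to 7.83. Among all tested genes with a length, the per-length level of Gria3 was above that of 32.7% of genes in Arhgef1 KO and 9.67% in WT, and the level of Trpm2 above that of 59.1% in Arhgef1 KO and 75.5% in WT. The length counts every annotated exon, so a gene with many unused exons is placed too low.

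**Figure D3:**
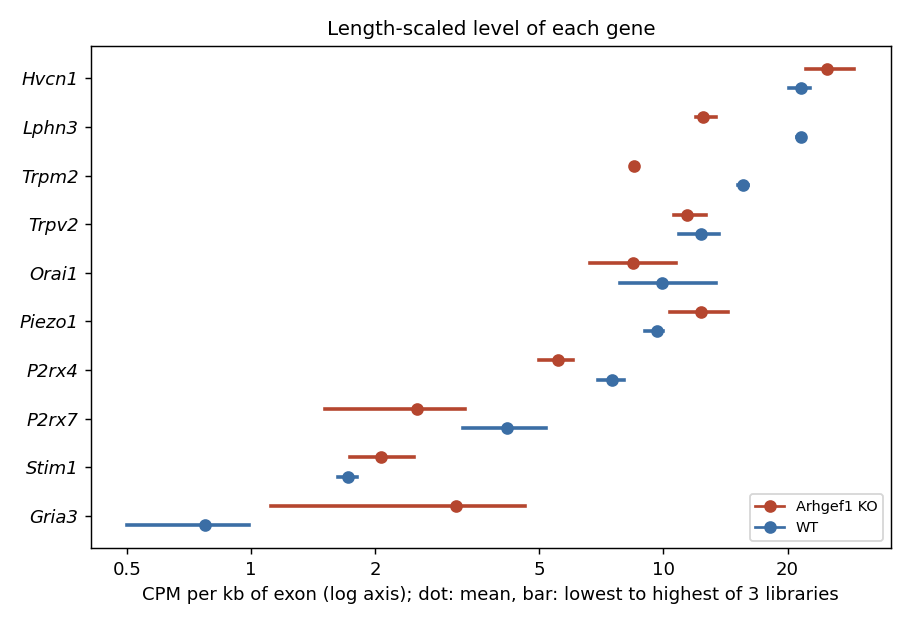
Level of each gene per kb of exon (CPM per kb, log axis), with Arhgef1 KO drawn above WT for each gene; dots are means and bars run from the lowest to the highest of 3 libraries. Gria3 lies near P2rx7 and Stim1 in Arhgef1 KO (3.14) and in the lowest place in WT (0.773), while Hvcn1 leads both orders.

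The genome positions hold a feature the choice of genes did not use. Hvcn1, P2rx7, P2rx4 and Orai1 lie within 0.824 Mb of chromosome 5 (mm10, from 122206804 to 123030456), all on the plus strand, with 18 protein-coding genes in that interval. P2rx7 ends 16.1 kb before P2rx4 starts. Their log2 fold changes were unlike: 0.20 for Hvcn1, -0.73 for P2rx7, -0.43 for P2rx4 and -0.23 for Orai1. Lphn3 lies on the same chromosome but far away, and the other genes lie on chromosomes X, 7, 8, 10 and 11.

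Beyond these 10, 225 further genes from 13 lists had a symbol in the table, and 160 of them were tested. Besides channel and calcium-handling genes, the lists hold related ones such as those of latrophilins, P2Y receptors, NADPH oxidase and ADP-ribose enzymes. All are called channel and calcium genes here for short. Of the 160, 5 rose and 12 fell in Arhgef1 KO and 143 did not pass (edgeR adjusted p under 0.05 over all 11504 genes). Over all tested genes, 9.67% were called, 5.09% higher and 4.58% lower. The median log2 fold change was -0.06 for these 160 genes and 0.00 for all. The lists were chosen with earlier results of these data known. Nothing is therefore read from these counts or from the counts per list below, and the p-values below carry the same limit. Without WT replicate 1 the number that fell was 6, and without WT replicate 2 it was 7. The 5 calls that held in every alternative were Lphn1, Cacna1e, Cybb, Ryr3 and Parp1. Of these, Lphn1, Cybb and Parp1 are related genes rather than channel or calcium-handling genes. The other 12 calls were each lost in at least 1 alternative.

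**Figure D4:**
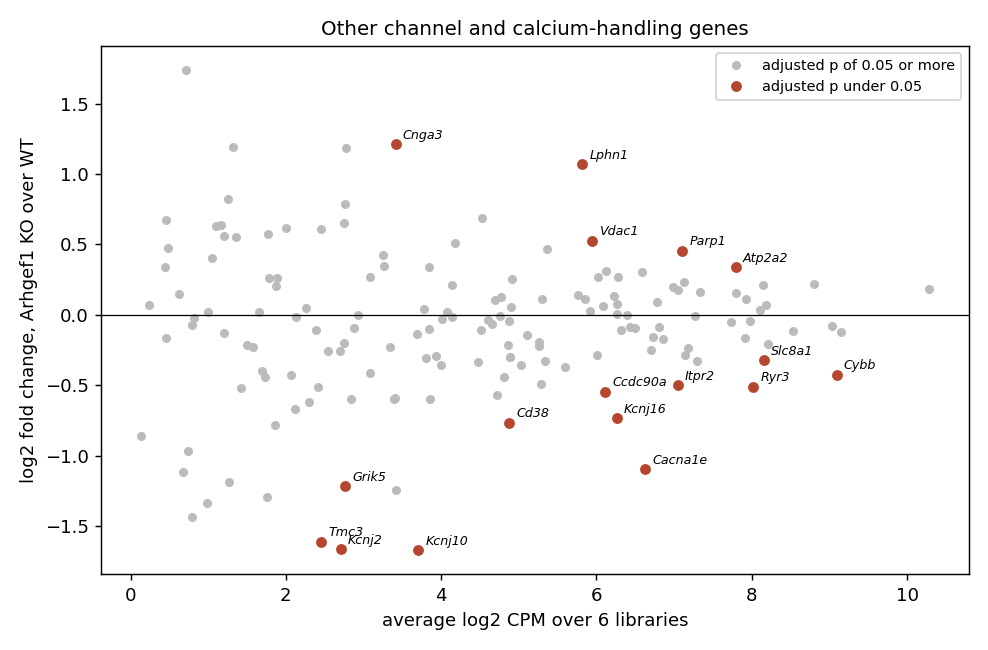
Log2 fold change (Arhgef1 KO over WT) against average log2 CPM for the 160 tested channel, calcium-handling and related genes outside the 10 described. Red, labelled points passed the test (5 higher, 12 lower). Lphn1 (1.07) and Cacna1e (-1.10) lie well away from 0 among genes of moderate abundance.

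Among the latrophilins and their ligands 1 of 5 rose and none fell. Lphn1, the close relative of Lphn3, was at 80.3, 88.3 and 59.7 CPM in Arhgef1 KO and 35.4, 34.5 and 38.7 CPM in WT. Its log2 fold change was 1.07 ± 0.16 (edgeR adjusted p = 2.18e-04), higher in 3 of 3 Arhgef1 KO libraries, and ran from 0.94 to 1.22 over the alternatives. Lphn1 and Lphn3 thus differed in opposite directions. Per length, Lphn1 stood at 8.86 ± 1.72 CPM per kb in Arhgef1 KO and 4.22 ± 0.254 in WT (SD, n = 3 each), while Lphn3 stood at 12.5 in Arhgef1 KO and 21.5 in WT. Lphn2 was near the limit of detection (2.36 ± 1.96 CPM in Arhgef1 KO and 1.52 ± 1.04 CPM in WT).

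In the ionotropic glutamate receptor list 1 of 10 other genes fell and none rose. Grik5, a kainate receptor subunit, was at 2.79, 4.14 and 4.95 CPM in Arhgef1 KO and 8.72, 10.6 and 8.49 CPM in WT (-1.22 ± 0.36, edgeR adjusted p = 0.0380). Its call was lost without Arhgef1 KO replicate 1 (-1.02) or 2 (-1.25), without WT replicate 1 (-1.26), 2 (-1.11) or 3 (-1.27), and with the replicate number as a block (-1.24). Dlg1, a scaffold of glutamate receptors, did not pass (-0.29 ± 0.10, adjusted p = 0.0810).

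In the TRP channel list, apart from Trpm2 and Trpv2, 0 of 9 tested genes were called by edgeR, DESeq2 or limma-voom. By edgeR 1 of them, higher in Arhgef1 KO, had an unadjusted p under 0.05. The share of all tested genes at that unadjusted cut is not given, so nothing is read from this count. Mcoln2 had the largest log2 fold change of the 9 (1.74), at a low average log2 CPM of 0.709. Mcoln1, a lysosomal TRP channel gene, was at 25.5, 25.2 and 46.5 CPM in Arhgef1 KO and at 27.3 ± 1.79 CPM in WT (SD, n = 3). It was not near the threshold (0.26 ± 0.22, edgeR adjusted p = 0.548). The enzymes that make or use ADP-ribose, the ligand of TRPM2, and the NADPH oxidase genes formed another list, in which 1 of 12 rose and 2 fell. Parp1, which builds poly(ADP-ribose), was at 161, 148 and 167 CPM in Arhgef1 KO and 116, 119 and 112 CPM in WT (0.45 ± 0.10, edgeR adjusted p = 0.00713). Cd38, an ectoenzyme that yields ADP-ribose and cyclic ADP-ribose, was at 22.3, 24.7 and 17.7 CPM in Arhgef1 KO and 48.5, 34.7 and 26.7 CPM in WT (-0.77 ± 0.21, adjusted p = 0.0307). That call was lost without Arhgef1 KO replicate 1 (-0.79) or 3 (-0.64) and without WT replicate 1 (-0.51) or 2 (-0.80). Cybb, the catalytic subunit of the oxidase that HVCN1 supports, was at 490, 461 and 447 CPM in Arhgef1 KO and 649, 614 and 612 CPM in WT (-0.42 ± 0.08, adjusted p = 0.00147). Macrophage markers were lower in the same libraries, and macrophages also express Cybb; their part in its change was not tested.

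Of 6 other P2X and P2Y receptor genes, 0 were called by edgeR or limma-voom, 3 had an unadjusted p under 0.05 and DESeq2 called 1. The median of the list was -0.47. P2ry10, a receptor for lysophospholipids, was at 140 ± 13.1 CPM in Arhgef1 KO and 175 ± 13.7 CPM in WT (SD, n = 3 each; -0.32 ± 0.10, edgeR adjusted p = 0.0574) and was the gene that DESeq2 called. Of 8 genes of ATP breakdown, adenosine signalling and ATP release, 0 were called by any of the 3 tools and 1 had an unadjusted p under 0.05. For these lists too, the share of all tested genes at the unadjusted cut is not given, and nothing is read from either count. Entpd1, the ectonucleotidase CD39, stood at -0.24 ± 0.10 on the log2 scale (edgeR adjusted p = 0.185).

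The store-operated and calcium-release list held 19 other tested genes, of which 1 rose, 2 fell and 16 did not pass. Ryr3, a release channel of the endoplasmic reticulum, fell to 234, 168 and 239 CPM in Arhgef1 KO, against 293, 302 and 317 CPM in WT (-0.51 ± 0.11, edgeR adjusted p = 0.00753). Itpr2, an inositol trisphosphate receptor, was at 113, 88.2 and 126 CPM in Arhgef1 KO and 153, 159 and 152 CPM in WT (-0.50 ± 0.12, adjusted p = 0.0137), with its call lost without Arhgef1 KO replicate 2 (-0.37) or WT replicate 2 (-0.48). Atp2a2, the SERCA2 pump that refills the store, was at 235, 249 and 257 CPM in Arhgef1 KO and 169, 219 and 198 CPM in WT (0.34 ± 0.10, adjusted p = 0.0407). Its call was lost without Arhgef1 KO replicate 2 (0.33) or 3 (0.31) or WT replicate 1 (0.25) or 3 (0.35). In the list of calcium export and calcineurin-NFAT genes 1 of 24 fell, the sodium-calcium exchanger gene Slc8a1 (-0.32 ± 0.09, adjusted p = 0.0314). Leaving out any one of 5 libraries ended that call, namely Arhgef1 KO replicate 2 (-0.26) or 3 (-0.32) or WT replicate 1 (-0.34), 2 (-0.29) or 3 (-0.33), and so did the replicate block (-0.33) and total counts without TMM (-0.29). In the mitochondrial list 1 of 13 rose and 1 fell: Vdac1, an outer membrane channel, stood at 72.3 ± 6.75 CPM in Arhgef1 KO and 50.2 ± 5.38 CPM in WT (SD, n = 3 each), and Ccdc90a (Mcur1), a regulator of the calcium uniporter, at 56.1 ± 3.35 CPM in Arhgef1 KO and 81.8 ± 7.55 CPM in WT. Their log2 fold changes were 0.53 ± 0.14 (adjusted p = 0.0201) and -0.54 ± 0.13 (adjusted p = 0.0107). The Vdac1 call was lost without Arhgef1 KO replicate 3 (0.45) or WT replicate 2 (0.45) or 3 (0.52), and the Ccdc90a call without WT replicate 1 (-0.49).

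Among mechanosensitive and volume-regulated channels other than Piezo1, 1 of 12 fell. Tmc3, a transmembrane channel-like gene, was at 2.21, 2.90 and 2.73 CPM in Arhgef1 KO and 5.36, 8.87 and 9.91 CPM in WT (-1.61 ± 0.41, edgeR adjusted p = 0.0180), a call lost without WT replicate 2 (-1.54) or 3 (-1.43). Tmem63a, an osmosensitive channel gene, did not pass (-0.37 ± 0.15, adjusted p = 0.135). Of 19 potassium channel genes 3 fell and none rose, all of them inward rectifiers. Kcnj10 was at 6.63, 3.62 and 8.01 CPM in Arhgef1 KO and 31.9, 16.0 and 10.4 CPM in WT (-1.67 ± 0.37, adjusted p = 0.00779), Kcnj2 at 3.05 ± 1.18 CPM in Arhgef1 KO and 9.61 ± 3.66 CPM in WT (-1.67 ± 0.41, adjusted p = 0.0161), and Kcnj16 at 57.4 ± 14.1 CPM in Arhgef1 KO and 95.5 ± 17.7 CPM in WT (SD, n = 3 each; -0.73 ± 0.17, adjusted p = 0.00931). Without WT replicate 1 the calls of Kcnj10 (-1.11), Kcnj2 (-1.34) and Kcnj16 (-0.60) were all lost. Kcnj2 also lost its call without Arhgef1 KO replicate 3 (-1.40) and Kcnj16 without Arhgef1 KO replicate 2 (-0.57).

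Of 14 voltage-gated sodium and calcium channel genes 1 fell. Cacna1e, which encodes the pore of the R-type calcium channel of neurons and endocrine cells, was at 53.0, 72.2 and 63.4 CPM in Arhgef1 KO and 125, 156 and 122 CPM in WT. Every Arhgef1 KO library lay below every WT library (-1.10 ± 0.13, edgeR adjusted p = 4.99e-05), and the log2 fold change ran from -1.21 to -0.97 over the alternatives. Of the markers of neurons and glia only Mbp, which other cells also express, was tested, and it did not pass (-0.01 ± 0.11 on the log2 scale, edgeR adjusted p = 0.965). In the remaining list of cation channels 1 of 9 rose, the cyclic nucleotide-gated channel gene Cnga3, at 17.2, 10.4 and 16.0 CPM in Arhgef1 KO and 5.84, 7.25 and 5.78 CPM in WT (1.21 ± 0.29, adjusted p = 0.0139). Its call was lost without Arhgef1 KO replicate 1 (1.08) or WT replicate 1 (1.16).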

How the data were processed

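Raw read counts per gene symbol were deposited by the authors, 1 column per library, without normalization. STAR, HTSeq, DESeq2 and the build mm10 are named in the submitters' processing notes; versions, annotation, strand setting and the filter behind the 14788 symbols were not given in the sources used here. Groups and replicate numbers came from the sample titles.

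Counts of all 6 libraries were fitted in edgeR 4.0.16 (R 4.3.3) with filterByExpr (11504 genes kept), TMM scaling and the quasi-likelihood test, with genotype the only covariate. Genes were called at a Benjamini-Hochberg adjusted p under 0.05 over all genes tested. SEs came from the fold change and F statistic. Correlations used log2 CPM with a prior count of 2 and left out genes with predicted-gene or similar placeholder names. Positions and exonic lengths came from GENCODE vM21, upstream sequences from RefSeq (GRCm38.p6). The procedure was also run on simulated counts with set changes, drawn from the means and spread fitted to these libraries. Those counts held no lane difference, so they say nothing about lane against genotype.

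The 10 genes and the gene lists were chosen with earlier results of these data known. Named from each channel and calcium list were up to 4 genes with the smallest p among those of average log2 CPM of at least 1. Some of these are not given. Every further gene called in these lists was named, and Mcoln2 was named for its fold change. Not every called cell type marker was named. Alternatives were median-ratio (RLE) factors, no TMM, no filter, a filter of 5 CPM in at least 3 libraries, DESeq2 1.42.0, limma-voom 3.58.1, a replicate block and leaving out each library.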

Additional observations from a re-analysis of the deposited data

How the results depend on the processing

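All 10 log2 fold changes kept their sign in every alternative except that of Orai1, which was -0.23 and became 0.05 without WT replicate 1. Leaving out 1 library at a time gave 310 to 583 genes higher and 264 to 489 lower over all tested genes, against 586 and 527 with all libraries, with drops of over 1.5 times without Arhgef1 KO replicate 2 (319 and 311) or WT replicate 1 (334 and 264), 2 (310 and 315) or 3 (383 and 351), and 4 to 5 channel and calcium genes higher and 6 to 10 lower, against 5 and 12. Libraries with the same replicate number did not deviate together (correlations of 0.038, -0.033 and -0.033 for numbers 1, 2 and 3), and not every library correlated best with its own number. With the replicate number as a block, 496 genes were higher and 449 lower, and 6 and 10 of the channel and calcium genes. DESeq2 called 725 higher and 647 lower, limma-voom 549 and 537. Genes with means of fewer than about 10 CPM, such as Kcnj2, Tmc3 and Grik5, rest on few counts and have wide errors. Gria3 was also below 10 CPM in WT, but its Arhgef1 KO libraries differed widely too, with an SD of 17.8 around 31.0 CPM.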
